A study of Macaca fascicularis with 28 samples.

Results

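The top and the bottom of circumvallate (CV) taste buds (TB) were compared in the cynomolgus macaque, with genes beyond matrix, cell cycle and taste receptor genes in view. The members are all samples labelled as the top portion or the bottom portion of CV TB, and they are 8 of the 28 samples of the series, with 4 of each fraction. Each fraction came from the same 4 macaques, numbered 7 to 10 here. Animal 7 was a male, and animals 8, 9 and 10 were females. All were 3 years old and no agent or genotype is labelled for them. The TB were cut along the walls of the CV papilla by laser capture microdissection (LCM), which isolates stained tissue areas from sections under a microscope. Material from many sections was pooled, to about 5000 cells per sample by the labels. The amplified RNA of each sample was measured on 1 array, an Affymetrix Rhesus Macaque design. A second comparison used 8 other samples of the series, whole CV TB and the lingual epithelium (LE) next to them from animals 1, 3, 4 and 5, 2 males and 2 females aged 2.6 to 4 years, again without a labelled treatment.

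A taste bud is a cluster of elongated cells whose tips meet at a pore open to the mouth and whose base rests on the connective tissue. Type II cells carry sweet, umami or bitter receptors, type III cells form synapses with nerve fibres, and type I cells wrap around the others. All are replaced throughout life by progenitors at the base and edge of the bud. Nuclei sit mainly in the lower and middle bud, while receptors and channels work at the tip, so that a cut across the bud divides both cell types and parts of cells.

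21167 of 52024 probe sets reached 25 units, the minimum intensity of the study, in at least 4 of the 8 samples and were tested. They stand for 9782 named genes. The differences below are log2 changes of the top against the bottom fraction in a linear model (limma) with the animal as a block, given ± standard error. A gene was called where its p, adjusted by Benjamini-Hochberg over all tested probe sets, was 0.05 or less. In per-sample values the animals stand in the order 7, 8, 9 and 10. Fold changes compare geometric means with values under 25 units raised to 25, and carry the words "at least" where the dimmer fraction had such values. Samples correlated with the other 3 of their fraction at a mean r of 0.913 to 0.935 among the top fractions and 0.848 to 0.885 among the bottom fractions. The lowest mean was that of the bottom sample of animal 9.

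Of the 9782 genes, 185 were higher in the top fraction (1.89%) and 147 in the bottom fraction (1.50%). These shares are the scale for all counts of list members below. Each of these 332 genes (3.39%) differed the same way in 4 of 4 animals, as did 20.0% of all genes toward the top and 10.9% toward the bottom. For 299 of them the fractions did not overlap, against 9.68% of all genes with every top sample above every bottom sample and 5.11% with the reverse. Where all 4 samples of 1 fraction were under 25 units, the filter itself fixed this separation. That was so for 25 of the called genes of the top and 22 of the bottom. By probe set, 355 were higher in the top fraction and 310 in the bottom fraction (1.68% and 1.46%), of which 108 and 135 differed at least 5-fold in the fit (0.510% and 0.638%). The median log2 change of all tested genes was 0.13, and centring the arrays on their median over the tested probe sets gave 254 and 364 calls, so that the share of calls toward the top went from 53.4% to 41.1%. No probe set was called by limma from any 3 of the 4 animals, while 4375 reached an unadjusted p under 0.05 with all 4. In a fit of all 28 samples, 171 of the 332 genes were called, and without animal 7, 8, 9 or 10 it called 77, 87, 100 and 66 of them. Of the 111 called genes named here, 17 lost their call when values under 25 units were raised to 25 before the fit, among them CLCA1, TLR10, ST8SIA5, PCSK2, NFIA, SCN3B, CLGN, CFB and EPHX4.

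The cell types that a cut through the bud can hold were followed by the summed level of marker lists. The 9 TB markers summed to 19307 to 23931 units in the top fractions and 11363 to 14136 in the bottom fractions, against 1244 to 1569 in LE of the other animals, so that both fractions held TB transcripts and the fractions did not overlap. None of these markers was under 25 units in all 8 samples. PLCB2 made up 38.2% of the sum and was not called itself (adjusted p = 0.257 in limma). CXCL14 and SNAP25 were planned as markers too but had no probe set named for them here. The 14 fibroblast markers went the other way, at 3835 to 5924 units in top samples and 9920.1 to 12012 in bottom samples, also without overlap. Basal keratinocyte markers summed to 7389 to 9237 in top samples and 10493 to 13193 in bottom samples and were higher in the bottom in 4 of 4 animals. In the other animals this list was at 6268 to 8294 units in whole CV TB and 1697 to 4636 in LE. Of its 11 tested members, 8 were higher in CV TB than in LE and 1 lower. The part of epithelium next to the bud in this sum was not tested. The pericyte list was higher in the bottom in 4 of 4 animals too, at 850.2 to 1413 against 1485 to 1927 units, with MYH11, CNN1 and KCNJ8 under 25 units in all 8. The receptor NOTCH3 made up 85.0% of this sum, and the called member was MCAM, an adhesion molecule, higher in the bottom by -1.74 ± 0.29 on the log2 scale (adjusted p = 0.0396). The melanocyte list was also higher in the bottom in 4 of 4, with 82.5% of its sum from the transporter SLC45A2, while the pigment enzymes TYR and TYRP1 and the melanosome protein PMEL were under 25 units in all 8. Its called member went the other way. MITF, a transcription factor of melanocytes and other cells, was 418, 271, 468 and 492 units in the top and 97.5, 136, 85.2 and 88.5 in the bottom (log2 2.01 ± 0.33, adjusted p = 0.0382), although a second MITF probe set changed by -0.67 without passing. The Schwann cell and mast cell lists were higher in the top in 4 of 4 animals, with GFRA3, which is also on the tuft cell list, at 69.4% of the first sum and KIT at 95.8% of the second.

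Lists of differentiated keratinocyte, endothelial, myeloid and lymphocyte markers were higher in the bottom fraction in 3 of 4 animals, with animal 9 the other way each time. CD1E made up 68.0% of the myeloid sum, GZMA 54.9% of the lymphocyte sum and CLDN5 43.9% of the endothelial sum. CLDN5 was itself higher in whole CV TB than in LE of the other animals (log2 4.63 ± 0.34). The endothelial members KDR, EGFL7, SOX17, LYVE1, FLT1 and ROBO4 were under 25 units in all 8. The called member of the lymphocyte list was JCHAIN, which joins secreted antibodies, at 272, 257, 355 and 194 units in the bottom and 133, 57.4, 53.5 and 42.3 in the top (log2 -2.03 ± 0.34, adjusted p = 0.0382). Yet 4 of its 6 tested members were above 0 (median 0.01). For PTPRC the brightest probe set was not called (0.03 ± 0.51), while a second was called toward the top (2.55 ± 0.27, adjusted p = 0.0235 in limma). CD8A, CD4, NKG7, MS4A1 and CD79A were under 25 units in all 8. The called member of the myeloid list was lysozyme, LYZ, which was higher in the top and is also on the mucosal defence list. Serous gland markers, made by the von Ebner glands that open beside CV TB, split 2 against 2. Their level reached 6382 and 6387 units in the bottom fractions of animals 8 and 10, while the other 6 samples held 974 to 2635. MUC7, LPO, PIGR and AQP5 were under 25 units in all 8 samples. The part of these cell types in the differences below was not tested, and in pooled tissue fewer cells of a type cannot be told apart from less RNA per cell.

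**Figure D1:**
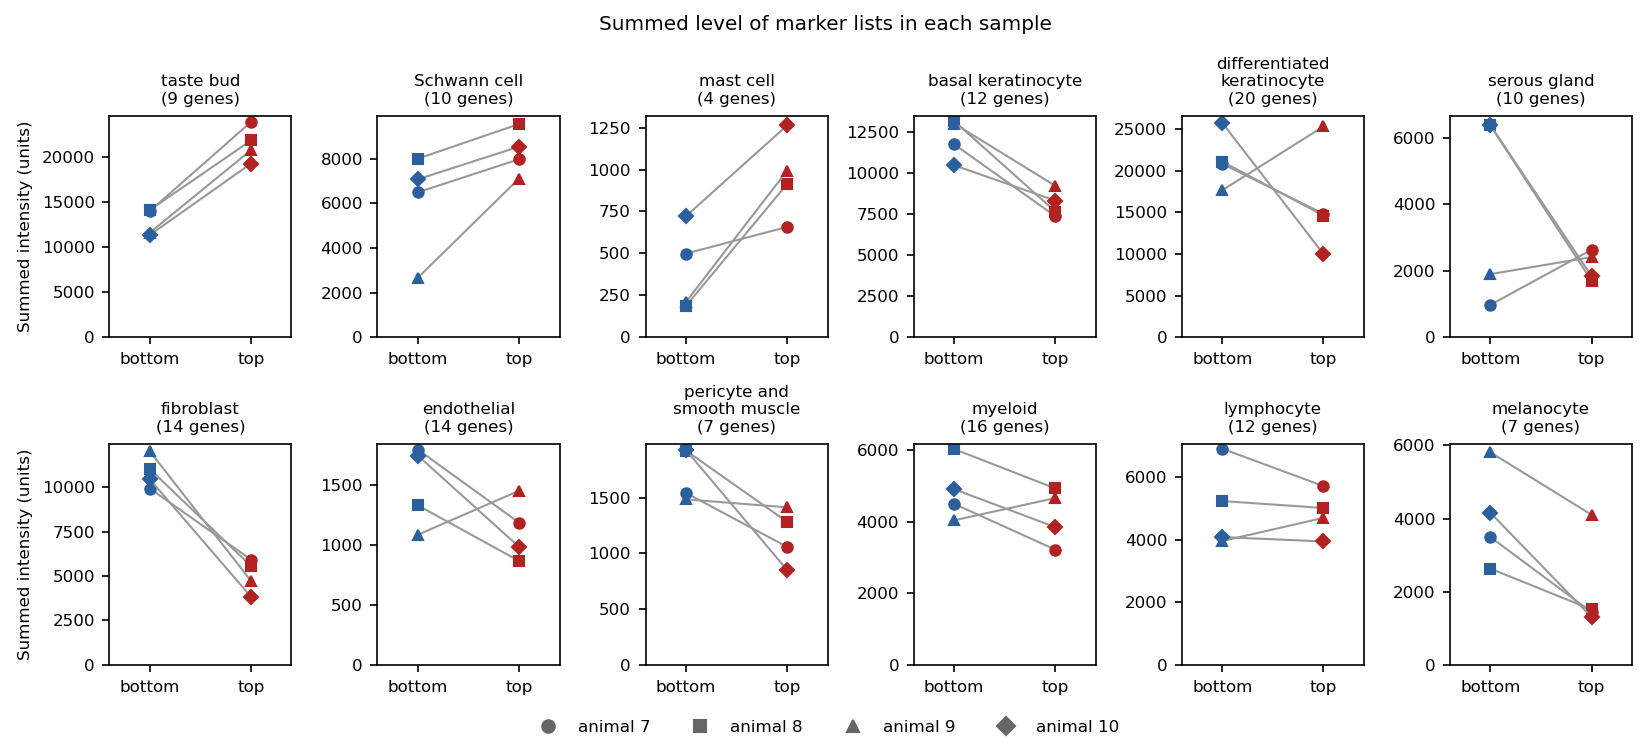
Summed intensity (units) of 12 marker lists in the bottom (blue) and top (red) fraction of each animal. Points are samples, the marker shape gives the animal and a line joins the fractions of 1 animal. Taste bud markers were higher in the top and fibroblast and basal keratinocyte markers higher in the bottom in 4 of 4 animals.

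Among the genes with the largest changes toward the top, leaving out matrix, cell cycle and taste receptor genes, were a sialyltransferase, a modulator of chloride channels and a receptor of innate immunity. ST8SIA1, which makes the ganglioside GD3, measured 248, 468, 298 and 398 units in the top fractions and 12.3, 41.5, 23.2 and 9.49 in the bottom fractions. Every top sample was far above every bottom sample, at least 12.1-fold higher (log2 4.22 ± 0.37, adjusted p = 0.0235). CLCA1, a secreted modulator of chloride channels, was 82.2, 139, 50.9 and 38.5 in the top and under 25 in all 4 bottom fractions, at least 2.75-fold higher (log2 3.72 ± 0.30, adjusted p = 0.0235). The Toll-like receptor TLR10 was 147, 34.2, 85.0 and 103 in the top and 21.4, 3.51, 4.35 and 4.63 in the bottom, likewise under 25 in every bottom sample (log2 3.71 ± 0.36, adjusted p = 0.0235). TLL2, a tolloid metalloprotease, was 451, 366, 555 and 449 in the top against 16.2, 35.6, 82.2 and 74.4, at least 9.32-fold higher.

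DPEP2, a membrane dipeptidase, and CEL, the bile salt-dependent lipase, were bright enough to be measured in both fractions. DPEP2 measured 1362, 1122, 993 and 855 units in the top and 155, 63.4, 186 and 127 in the bottom, 8.65-fold higher (log2 3.11 ± 0.35, adjusted p = 0.0235). CEL measured 3152, 2272, 2941 and 1225 in the top and 263, 360.1, 821 and 73.3 in the bottom, 8.20-fold higher (log2 3.04 ± 0.41, adjusted p = 0.029). The 2 did not overlap between fractions, although CEL varied within the bottom fractions and was lowest in animal 10 in both. The formin FMN2, an actin nucleator, was higher in the top by 3.09 ± 0.39 on the log2 scale. The epoxide hydrolase EPHX4 (3.00 ± 0.32) and the chromatin remodeller CHD5 (2.94 ± 0.43) differed within every animal, but their fractions overlapped, since the top samples of animal 9 for EPHX4 (35.7 units) and of animal 10 for CHD5 (66.4) were low.

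Toward the bottom, the largest change outside matrix and cell cycle genes belonged to a keratin. The probe set that the array annotation gives to KRT9 measured 9333, 5134, 6833 and 5630.3 units in the bottom and 365, 261, 392 and 70.2 in the top, 28.9-fold higher in the bottom (log2 -4.86 ± 0.42, adjusted p = 0.0235). Keratins are alike in sequence, and which of them this probe set measures was not tested. The transcription factor TP63, a marker of basal epithelial cells, was 2815, 1405, 3558 and 1284 in the bottom and 88.6, 233, 788 and 176 in the top, 8.91-fold higher in the bottom (log2 -3.16 ± 0.49, adjusted p = 0.0348). Its highest top sample, that of animal 9, still lay below every bottom sample.

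The other leading genes of the bottom included DKK3, NRN1 and TMSB15A. DKK3, a secreted member of the Dickkopf family, was 828, 276, 2516 and 422 units in the bottom and 50.0025, 15.2, 42.2 and 59.97 in the top (log2 -4.24 ± 0.49, adjusted p = 0.0235), with the largest bottom value in animal 9. NRN1, the neurite-promoting protein neuritin, was 345, 907, 687 and 490.1 in the bottom and 63.4, 87.1, 112 and 65.7 in the top, 7.14-fold higher (log2 -2.84 ± 0.27, adjusted p = 0.0235). TMSB15A, an actin-binding thymosin, was 963, 519.8, 1368 and 571 against 45.4, 133, 206 and 109. The fractions did not overlap for any of these genes. BDKRB1, a bradykinin receptor, was at least 8.55-fold higher in the bottom, and the postsynaptic adaptor ANKS1B at least 9.46-fold, with all 4 top samples of ANKS1B under 25 units. CYYR1, BNC2, a zinc finger protein of the basonuclin family, and FAM162B were also under 25 in every top sample, and IQGAP3, a scaffold protein of proliferating cells, overlapped between fractions because animal 10 was dim in both (4.20 and 24.4 units).

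**Figure D2:**
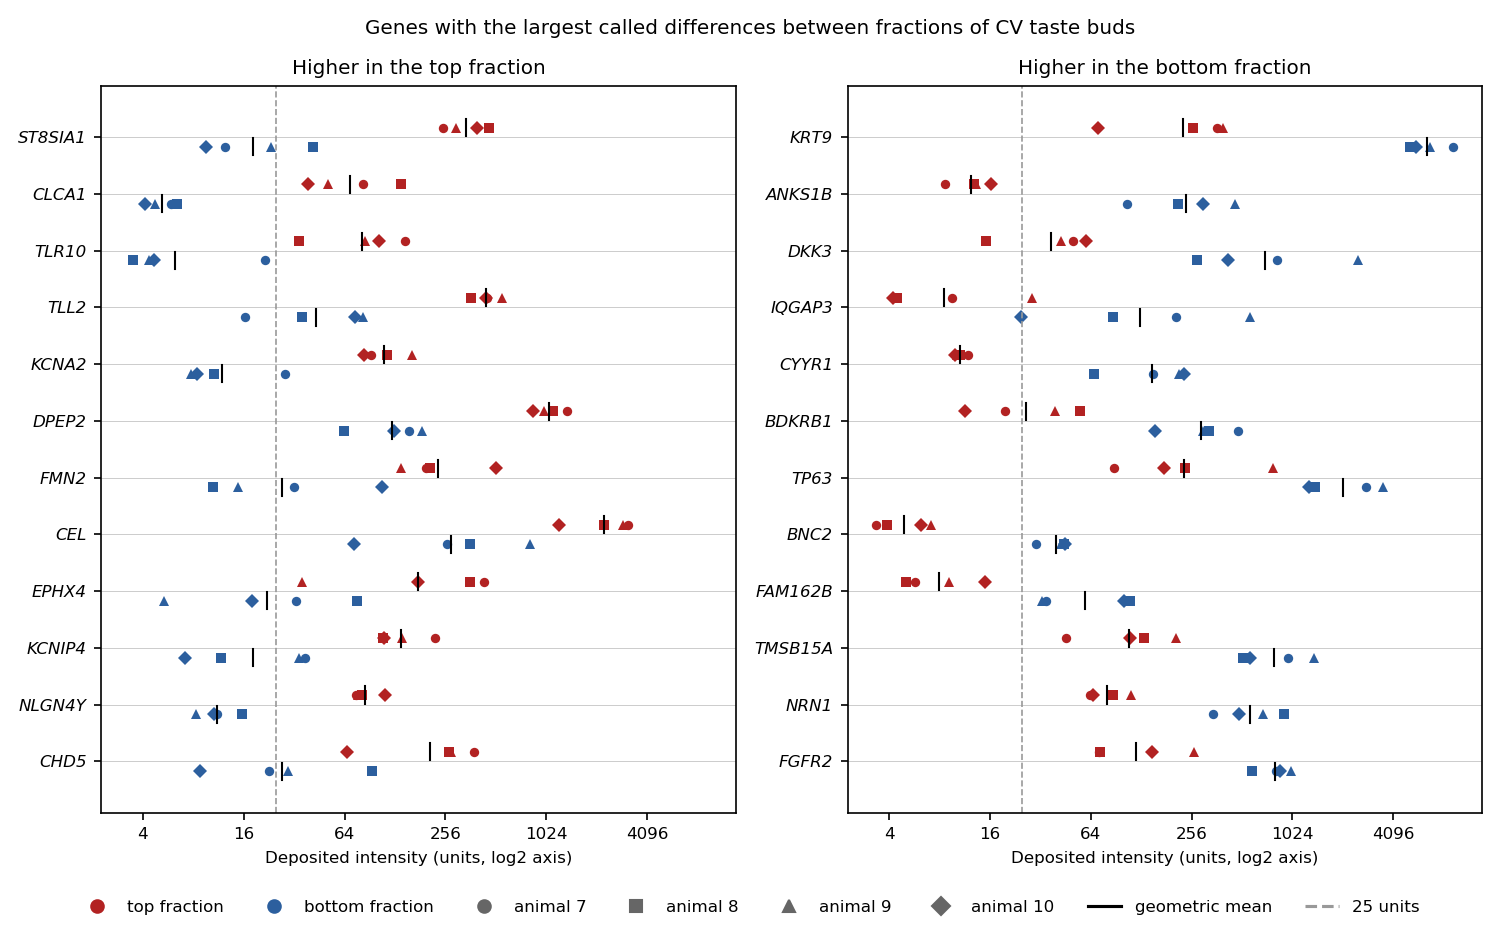
Intensity (units, log2 axis) of the 12 genes with the largest called change in each direction, without matrix, cell cycle and taste receptor genes. Red points are top and blue points bottom samples, the shape gives the animal, the black tick is the geometric mean and the dashed line marks 25 units. EPHX4, CHD5 and IQGAP3 are the genes in it whose fractions overlap.

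Called genes of the taste cell types were all higher in the top. Of 11 tested genes of type II cell transduction, 2 were called higher in the top and none in the bottom (median log2 change 1.32, against 0.13 over all genes). The top was higher in 4 of 4 animals for 9 of them, as for 20.0% of all genes. The channel TRPM5 was 681, 689.98, 485 and 443 units in the top and 253, 255, 125 and 181 in the bottom (log2 1.53 ± 0.25, adjusted p = 0.0382). GNA14, a G protein alpha subunit of the Gq family, was 134, 170.03, 168 and 225 against 48.3, 16.5, 30.3 and 66.9 (log2 2.26 ± 0.37, adjusted p = 0.0382). The G protein gustducin, GNAT3, had no overlap between fractions and a change of 1.64 ± 0.31, but an adjusted p of 0.0508 in limma. PLCB2, the phospholipase of the same cascade, was bright in both, 7693, 7407, 7656 and 8423 and 5677, 5144, 5381 and 5017 units, with a change of 0.56 ± 0.24 (adjusted p = 0.257). For comparison, 8 of 13 tested taste receptors were called toward the top, led by TAS2R49 and TAS2R16, both under 25 units in every bottom sample.

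Genes known from tuft cells, chemosensory cells of other epithelia that share this cascade, had a median change of 1.72 over 9 tested members. All 9 were higher in the top in 4 of 4 animals, as were 20.0% of all genes. Called were IL17RB, a subunit of the receptor for the tuft cell cytokine interleukin 25, and the kinase BMX. IL17RB measured 599, 546, 297 and 454 units in the top and 106, 67.4, 43.8 and 76.7 in the bottom, 6.54-fold higher (log2 2.71 ± 0.25, adjusted p = 0.0235). BMX measured 2042, 1701, 1588 and 1365 against 324, 690.2, 359 and 428, 3.85-fold higher (log2 1.94 ± 0.31, adjusted p = 0.0363). Neither gene overlapped between fractions. Of 7 type III genes only the channel PKD2L1 was called (1.50 ± 0.25, adjusted p = 0.0395), and of 3 type I genes only FXYD6, a regulator of the sodium pump (1.62 ± 0.29, adjusted p = 0.0435).

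Enzymes of glycan and ganglioside synthesis divided between the fractions. Of 66 tested, 5 were called toward the top and 2 toward the bottom, beside 1.89% and 1.50% of all genes, with a median of 0.46. Beside ST8SIA1, the top held more of ST3GAL5, which makes the ganglioside GM3 from which GD3 is built. ST3GAL5 measured 358, 231, 155 and 318 units in the top and 123, 51.4, 37.7 and 145 in the bottom, 3.29-fold higher (log2 1.72 ± 0.29, adjusted p = 0.0382). ST8SIA5, a further sialyltransferase of the ganglioside pathway, was 106, 35.7, 35.9 and 82.9 in the top and under 25 in all 4 bottom samples (log2 2.30 ± 0.24, adjusted p = 0.0235), and the sulfotransferase CHST2 changed by 1.94 ± 0.36. ST3GAL5 lost its call without the block and in the fit of all 28 samples, and ST8SIA5 with values raised to 25 units and in the fit of all 28 samples, while ST8SIA1 kept it in each of these. In the bottom were ST6GALNAC2, which sialylates mucin-type glycans, at 2447, 2169.5, 3519 and 2413 units against 461, 536, 1694 and 257 in the top (4.53-fold higher, adjusted p = 0.0434), and the fucosyltransferase FUT1, at 83.9, 123, 195 and 275 against 30.4, 45.4, 39.9 and 61.6 (3.57-fold higher, adjusted p = 0.0338). The bottom samples lay above all top samples for both.

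Of 34 tested potassium channel genes, 2 were called toward the top and none toward the bottom, beside 1.89% and 1.50% of all genes, with a median of 0.48. KCNA2, a delayed rectifier subunit, measured 92.7, 115, 162 and 83.4 units in the top and 28.4, 10.6, 7.74 and 8.43 in the bottom (at least 4.24-fold higher, log2 3.21 ± 0.45, adjusted p = 0.0298). KCNIP4, a subunit that binds A-type potassium channels, measured 223, 109, 141 and 111 against 37.1, 11.8, 34.3 and 7.18 (at least 4.67-fold higher, log2 2.94 ± 0.37, adjusted p = 0.0248). Neither overlapped between the fractions. Of 20 calcium and sodium channel genes, TRPM5 and the sodium channel subunit SCN3B (2.19 ± 0.27, adjusted p = 0.0245) were called toward the top. Of 16 tested chloride channel genes, 1 was called in each direction, beside 1.89% and 1.50% of all genes. The median was 0.38, with 12 members above and 4 below 0. CLCA1 was higher in the top and CLIC5, an intracellular chloride channel protein, higher in the bottom (-2.35 ± 0.28, adjusted p = 0.0237). A second CLIC5 probe set changed by 1.13 without passing.

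Adhesion molecules best known from neurons had 4 of 23 tested members higher in the top, none in the bottom, and a median of 0.77. Of all genes, 1.89% and 1.50% were called in these directions. L1CAM was 458, 319, 352 and 407 units in the top and 114, 49.5, 99.8 and 77.6 in the bottom, 4.68-fold higher (log2 2.23 ± 0.27, adjusted p = 0.0238). N-cadherin, CDH2, was 1377, 1699, 982 and 1173 against 474, 424, 393 and 422, 3.00-fold higher (log2 1.59 ± 0.25, adjusted p = 0.0371). Both separated the fractions fully, as did the presynaptic NRXN3 (2.72-fold, adjusted p = 0.0461). The probe set of the neuroligin NLGN4Y, whose gene is on the Y chromosome, was 74.9, 81.8, 76.9 and 112 in the top, females included, and under 25 in all bottom samples (adjusted p = 0.0235). Its near-identical X-linked partner NLGN4X, singled out after its values were seen, went the other way in brighter signals, with 949, 581, 624 and 450.2 in the top and 1753, 2517, 1850.3 and 2699 in the bottom (log2 -1.79 ± 0.34, adjusted p = 0.0508 in limma). Females have no Y chromosome, so the signal in the females cannot be of NLGN4Y itself. Which transcript this probe set measures was not tested, and it is 1 of the 4 called members counted above. L1CAM is also on the Schwann cell list, whose other called member, the myelin protein PMP22, was higher in the bottom (-2.73 ± 0.37, adjusted p = 0.029), while SOX10, CDH19 and FOXD3 were under 25 units in all 8.

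Among 13 tested genes of granins and prohormone processing, 3 enzymes that mature peptide hormones were called higher in the top and no member in the bottom, and the other 10 were not called (median 0.82). QPCT, glutaminyl cyclase, which closes the amino end of peptides, measured 1199, 977, 2165 and 687 units in the top and 339, 163, 368 and 65.7 in the bottom, 6.01-fold higher (log2 2.59 ± 0.32, adjusted p = 0.0248). PAM, which amidates the carboxyl end, measured 545, 813, 753 and 854 against 247, 277, 235 and 297, 2.78-fold higher (log2 1.47 ± 0.25, adjusted p = 0.0386). The convertase PCSK2 was under 25 in all bottom samples and 135, 34.7, 137 and 155 in the top (log2 2.82 ± 0.31, adjusted p = 0.0235). QPCT and PAM separated the fractions. PCSK2 did so too, with 1 dim top value in animal 8, but there the filter fixed it, since all bottom samples were under 25 units. Of 17 peptide hormone genes only the precursor POMC was called, higher in the top by 1.80 ± 0.24 (adjusted p = 0.029). It was lowest in animal 10 in both fractions, which therefore overlapped.

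Receptor genes for transmitters and hormones were called in both directions. The somatostatin receptor SSTR1, the only called gene of 9 tested hormone and neuropeptide receptors, was 189, 229, 291 and 189.7 units in the top and 19.5, 15.7, 24.4 and 107 in the bottom, at least 6.15-fold higher (log2 2.89 ± 0.53, adjusted p = 0.0466). Among 24 neurotransmitter receptor genes the adrenergic receptor ADRA1A was 429, 481, 583 and 487 against 55.7, 207, 122 and 24.4 (log2 2.69 ± 0.50, adjusted p = 0.0485), and the adenosine receptor ADORA2B 304, 559, 711 and 434 against 109, 42.8, 181 and 120.2 (log2 2.25 ± 0.41, adjusted p = 0.0461). These 3 did not overlap between fractions. The GABA receptor subunit GABRE was higher in the bottom, at 96.6, 71.2, 128 and 58.3 units, and under 25 in all 4 top samples (log2 -2.39 ± 0.28, adjusted p = 0.0236). RAB3B, a small GTPase of secretory vesicles, was the only called gene of 22 in synaptic vesicle release (1.42 ± 0.24, adjusted p = 0.0406), whose median was 0.67.

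Chaperones of the secretory pathway had 3 of 25 tested members higher in the top, none in the bottom and a median of 0.53. DNAJB9, a cofactor of the chaperone BiP, was 1358, 1946, 1634 and 1693 units in the top and 287, 347, 441 and 398 in the bottom, 4.52-fold higher (log2 2.18 ± 0.25, adjusted p = 0.0235). AGR3, a disulfide isomerase relative, was 239.9, 215, 244 and 561 against 56.8, 99.9, 31.1 and 103 (4.43-fold, adjusted p = 0.0382). Their fractions did not overlap. The third was CLGN, calmegin, which stayed under 25 units in the bottom (2.47 ± 0.44, adjusted p = 0.0435).

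Lipid enzymes included 3 of 31 toward the top and 1 toward the bottom. Beside CEL these were ELOVL7, a fatty acid elongase, at 839, 972, 922 and 1236 units in the top and 287, 300.2, 288 and 523 in the bottom (2.91-fold, adjusted p = 0.0363), and the thioesterase OLAH (2.54 ± 0.36, adjusted p = 0.0307), whereas the fatty acid transporter SLC27A3 was higher in the bottom (-2.15 ± 0.26, adjusted p = 0.0236). Of 163 solute carriers, 6 were called toward the top and 1 toward the bottom, beside 1.89% and 1.50% of all genes. SLC12A8, of the cation-chloride cotransporter family, measured 3801, 3294, 2795 and 2672 units in the top and 505, 933, 461 and 859.6 in the bottom (4.73-fold, log2 2.24 ± 0.31, adjusted p = 0.0304). The anion exchanger SLC26A7 was 1135, 869.9, 909.6 and 780.1 against 187, 347, 264 and 93.8 (4.57-fold, adjusted p = 0.0377), and the urate transporter SLC2A9 was also higher in the top (2.09 ± 0.36, adjusted p = 0.0418). No overlap was seen for these 3. On the list of retinoid, steroid and xenobiotic enzymes, with 74 tested, EPHX4, ALLC and ALDH1B1 were called toward the top, beside 1.89% of all genes. ALLC, allantoicase, was counted on this list although it is an enzyme of purine breakdown. The cytochrome CYP4B1 was called toward the bottom, beside 1.50% of all genes. It measured 414, 362, 591 and 185 units there against 81.5, 103, 64.2 and 24.8 in the top (at least 5.90-fold, adjusted p = 0.0245).

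Mucosal and innate defence genes had 4 of 25 tested members higher in the top and 1 in the bottom, while the median of the list was -0.05. CD55, which protects cells from complement, measured 2034, 2122, 1319 and 974 units in the top and 269, 479, 221 and 315 in the bottom, 4.99-fold higher (log2 2.32 ± 0.30, adjusted p = 0.0265), and its 3 other tested probe sets were called the same way. Lysozyme, LYZ, measured 325, 1022, 469 and 399 against 74.3, 130.02, 64.2 and 201, 4.73-fold higher (log2 2.24 ± 0.39, adjusted p = 0.0418). Both were higher in every top sample than in any bottom sample. Complement factor B, CFB, varied widely between animals, 1043, 1311, 65.5 and 245 in the top and 61.6, 234, 21.8 and 73.0 in the bottom, and was called by its difference within animals (2.48 ± 0.46, adjusted p = 0.0465). The membrane mucin MUC15 was higher in the bottom (-1.74 ± 0.30, adjusted p = 0.0401).

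Proteases and their inhibitors numbered 4 of 95 toward the top and 2 toward the bottom, beside 1.89% and 1.50% of all genes. MMP7, matrilysin, measured 2938, 4143, 3891 and 4083 units in the top and 1448, 1399, 855 and 1349.9 in the bottom, 3.02-fold higher (log2 1.59 ± 0.28, adjusted p = 0.0435). The inhibitor of serine proteases SERPINE2 went the other way, 1679.9, 1354, 945 and 1744 in the bottom and 309, 332, 143 and 286 in the top, 5.47-fold higher in the bottom (log2 -2.45 ± 0.26, adjusted p = 0.0235), with 2 further probe sets called alike. The fractions did not overlap for either. Neuroserpin, SERPINI1, was higher in the top (1.82 ± 0.33, adjusted p = 0.0435) and ADAM18, known from sperm, in the bottom (-2.21 ± 0.38, adjusted p = 0.0416).

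Transcription factors were called in small numbers. NFIA was under 25 in all bottom samples and 69.7, 40.5, 32.7 and 25.3 in the top (log2 2.73 ± 0.43, adjusted p = 0.0363). Bottom samples were above all top samples for EBF1, 588, 568, 442 and 779 against 133, 96.4, 70.6 and 144 (5.44-fold, log2 -2.44 ± 0.25, adjusted p = 0.0235), and for SOX6, 380.3, 479.9, 516 and 342 against 86.2, 185, 84.4 and 46.7 (4.75-fold, log2 -2.25 ± 0.32, adjusted p = 0.0315). EBF1 is known from B cells and mesenchyme, and SOX6 from cartilage, muscle and neurons. Zinc finger genes of the ZNF family, 233 tested, had 4 called toward the top and 1 toward the bottom. Both shares were below the 1.89% and 1.50% of all genes, and the median of 0.17 was close to that of all genes. ZNF385B was the largest of them (2.81 ± 0.43, adjusted p = 0.0342), followed in the top by ZNF275 (2.05 ± 0.30), ZNF483 (1.72 ± 0.26) and ZNF382 (1.65 ± 0.29), whose fractions overlapped. A second ZNF275 probe set changed by only 0.009 ± 0.325 and was not called. ZNF367 was the called gene of the bottom (-2.18 ± 0.31, adjusted p = 0.0308).

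The growth factor receptors FGFR2 and FGFR3 were called higher in the bottom. Of 24 tested genes of FGF, EGF and PDGF signalling, 3 were called there and 1 in the top, while the median was 0.26, with 16 members above and 8 below 0. The receptor FGFR3 measured 3039, 1257, 4334 and 3366 units in the bottom and 731, 278, 839 and 306 in the top, 5.72-fold higher in the bottom (log2 -2.52 ± 0.32, adjusted p = 0.0256). FGFR2, a receptor of epithelial cells for FGFs from the mesenchyme, measured 813, 587, 998 and 867 against 71.6, 72.4, 266 and 149, 6.70-fold higher in the bottom (log2 -2.74 ± 0.33, adjusted p = 0.0237). The ligand FGF19 was 149, 167, 48.7 and 283 in the bottom and 14.5, 17.4, 27.1 and 37.1 in the top (adjusted p = 0.0435). No bottom sample of the 3 fell within the range of the top. FGF12, which stays inside cells and modulates sodium channels, was the called gene of the top, 1882, 1719.5, 1758 and 461 against 461, 278, 172 and 86.0, 6.10-fold higher (log2 2.61 ± 0.30, adjusted p = 0.0235), and its top sample of animal 10 was the lowest.

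Pathways of epithelial renewal had 1 or 2 called members each, toward the bottom, beside 1.50% of all genes called there and 1.89% toward the top. Counts this small give no direction for a pathway. GLI1, a target and effector of Hedgehog signalling, was 70.8, 68.6, 52.2 and 91.3 units in the bottom and under 25 in all 4 top samples (log2 -2.20 ± 0.28, adjusted p = 0.0252). It was the only called gene of 9, whose median was -0.57. Of the others, named after their values were seen, the receptor PTCH1 changed by -1.19 ± 0.27 (adjusted p = 0.072 in limma) and SMO by -1.69 ± 0.36 (adjusted p = 0.064), while the ligand SHH was at 1345, 1333, 1299.5 and 2605 units in the top and 1390.4, 1577, 1158 and 2306 in the bottom (log2 0.01 ± 0.24, adjusted p = 0.984). In the Wnt pathway 2 of 35 were called, DKK3 and the receptor FZD4, 242, 350.4, 359.5 and 532 in the bottom against 93.2, 99.0, 92.6 and 102 (3.70-fold, adjusted p = 0.0316). In the Notch pathway DLK2, a ligand-like membrane protein, was 1 of 22 (-2.29 ± 0.26, adjusted p = 0.0235), and in the BMP and TGF-beta pathway ID3, a BMP-induced inhibitor of basic helix-loop-helix factors (-2.04 ± 0.27, adjusted p = 0.0275), and TGFBI (-1.51 ± 0.29, adjusted p = 0.0499) were 2 of 35. A second ID3 probe set changed by only -0.14 ± 0.35 and was not called. The medians of the Wnt, Notch and BMP and TGF-beta lists were 0.02, -0.09 and 0.29, and the last had 20 members above and 15 below 0.

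**Figure D3:**
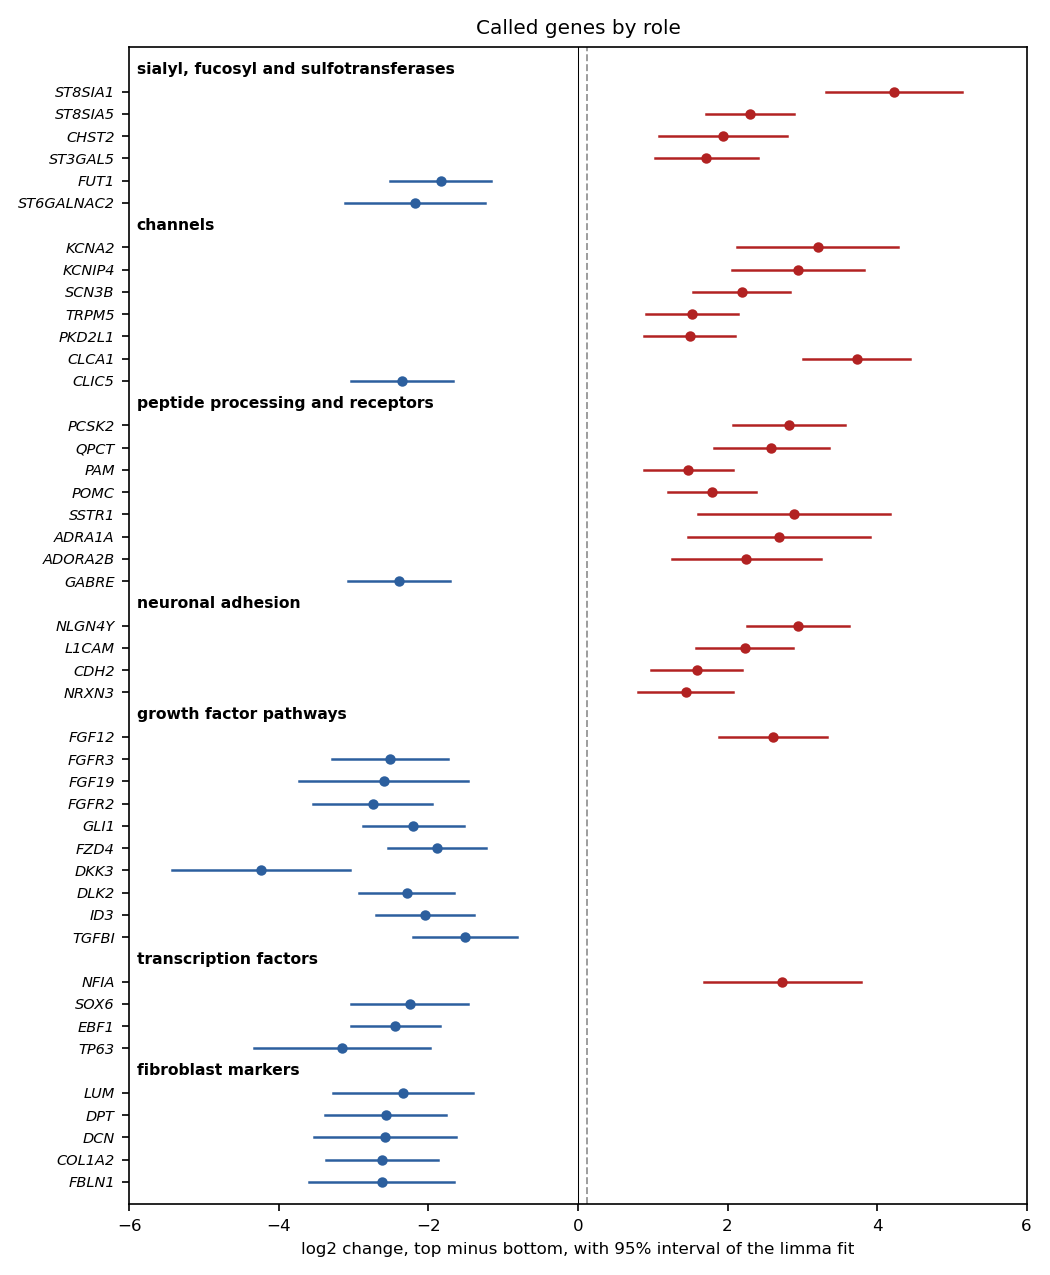
Log2 change (top minus bottom, n = 4 animals) of called genes, grouped by role, with the 95% interval of the limma fit. Red marks genes higher in the top and blue genes higher in the bottom, and the dashed line is the median of all tested genes, 0.13. Among these called genes, peptide processing enzymes and neuronal adhesion genes lie to the right, growth factor pathway genes other than FGF12 to the left. Their side does not give that of whole lists. The medians over all tested members were 0.26 (FGF, EGF and PDGF), -0.57 (Hedgehog), 0.02 (Wnt), -0.09 (Notch) and 0.29 (BMP and TGF-beta).

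Matrix and cell cycle genes are given only as a scale for these changes. Of 60 tested cell cycle and replication genes, 20 were called toward the bottom and none toward the top (median -1.68), with TOP2A (-4.16 ± 0.52) and TYMS (-3.99 ± 0.36) leading. Of 60 matrix genes, 16 were called toward the bottom and 4 toward the top, with TNC (-5.66 ± 0.25, adjusted p = 0.00457) and POSTN (-3.43 ± 0.53) leading. Matrix genes coincide in part with the fibroblast list, of which 6 of 11 tested members were called toward the bottom and none toward the top (median -2.34). Decorin, DCN, measured 3746, 3220.4, 4595 and 2859 units in the bottom and 1459, 355, 437 and 540.5 in the top (6.00-fold, adjusted p = 0.0338). DPT, dermatopontin, measured 467, 456, 463 and 753 against 103, 106, 88.4 and 61.6 (5.95-fold, adjusted p = 0.0265). COL1A2 and FBLN1 each changed by -2.62, and lumican, LUM, by -2.34 ± 0.39 (adjusted p = 0.0382). MFAP5, which carried 49.6% of the summed signal of the list and was named for it after its values were seen, measured 4043, 4941, 4259.7 and 3991 in the bottom and 3517, 4332, 3719 and 2667 in the top, with a change of -0.29 ± 0.24 (adjusted p = 0.554 in limma).

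Keratinocyte markers were mostly not called. Of 11 tested basal keratinocyte markers, TP63 and the laminin chain LAMA3 (-1.72 ± 0.30, adjusted p = 0.0418) were called toward the bottom and the median was -0.37. The hemidesmosome genes ITGB4 (-0.82 ± 0.31) and COL17A1 (-0.23 ± 0.32) were not called. None of 14 tested markers of differentiated keratinocytes was called, and 9 of them were above and 5 below 0 (median 0.12). The keratin of the outer lingual epithelium KRT13 was 909, 1157, 1738 and 1513 units in the bottom and 422, 327, 351 and 117 in the top, without overlap, but its adjusted p was 0.0532 in limma. KRT4 was likewise above the top in every bottom sample (-2.21 ± 0.55, adjusted p = 0.09). The lipocalin of von Ebner glands, LCN1, was at 526, 3846, 827 and 3717 in the bottom and 1056, 796, 1105 and 67.3 in the top, an order that differed between animals.

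Lists of general cell functions held no called member. Ribosomal protein genes had a median of -0.17 over 37 tested, with RPL35A at -0.06 ± 0.24, RPS7 at -0.05 ± 0.24 and RPL23 at -0.08 ± 0.24. Oxidative phosphorylation genes had a median of 0.10 over 63, glycolytic genes 0.22 over 22, and heat shock and immediate early genes -0.06 over 20. Axon guidance genes (-0.05 over 48), tight junction genes (0.13 over 24), desmosome and connexin genes (-0.23 over 17) and the IGF system (-0.34 over 13) had none either. Of these, IGF1 was bright in both fractions, at 2838, 3394, 4359.5 and 3725 units in the top and 2531, 3266, 1655 and 2883 in the bottom (0.50 ± 0.31). With 4 animals the smallest change called in any named gene was 1.31 on the log2 scale.

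**Figure D4:**
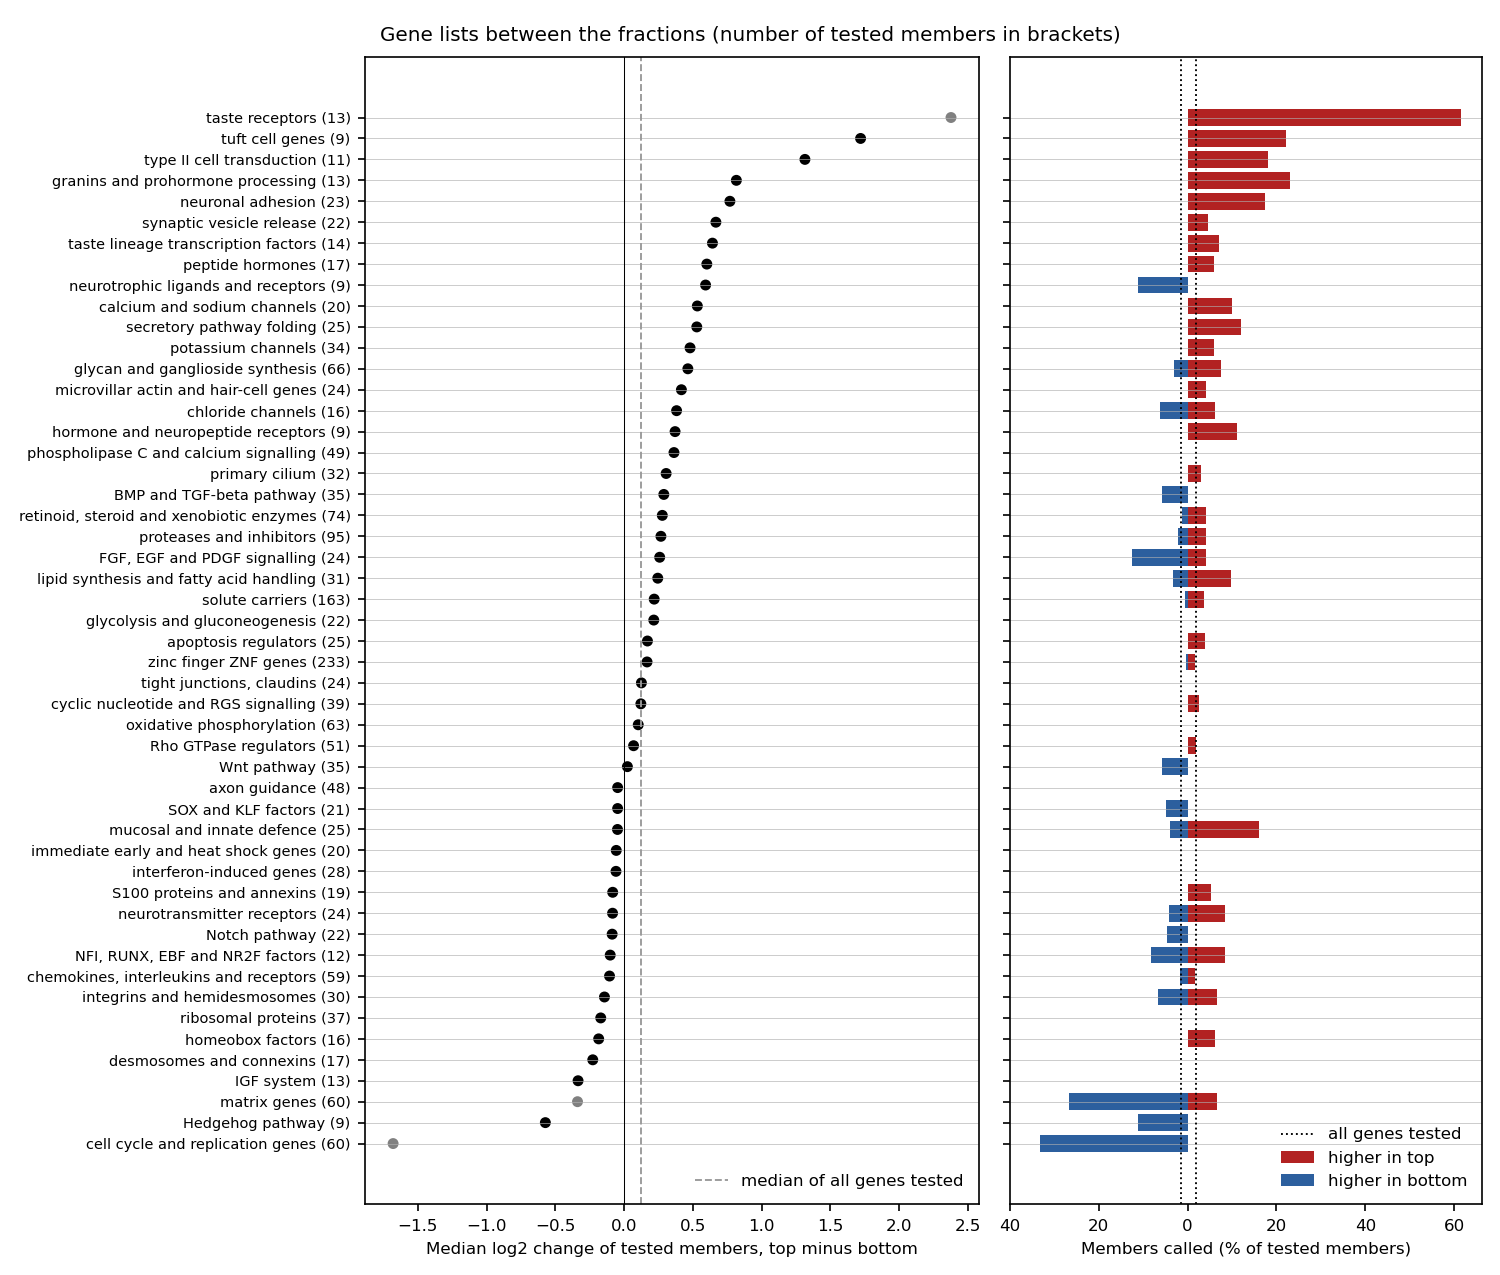
Left, median log2 change (top minus bottom) of the tested members of gene lists with at least 9 tested members, with the median of all genes as a dashed line and matrix, cell cycle and taste receptor lists in grey. Right, the percent of tested members called higher in the top (red) or the bottom (blue), with dotted lines at the percent over all genes, 1.89 and 1.50. The medians run from -1.68 for cell cycle genes to 2.38 for taste receptors.

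Whether genes of either fraction also separate TB from the epithelium around them was asked in other animals, with whole CV TB and adjacent LE of animals 1, 3, 4 and 5 and the same model. Of all 9782 genes, 24.9% were higher and 12.8% lower in CV TB than in LE. Of the 185 genes of the top, 118 were higher in CV TB (63.8%) and 12 lower (6.49%), with a median log2 difference of 3.08. Of the 147 genes of the bottom, 23 were higher (15.6%) and 19 lower (12.9%), with a median of 0.36, near the 0.32 of the genes called in neither direction. The 23 became 15, 13, 12 and 13 without animal 1, 3, 4 or 5, and 13 with values raised to 25 units, and the 19 became 12 without animal 4.

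Among the genes above, CEL, DPEP2, CDH2, BMX and QPCT combined both patterns. CEL averaged 1429 ± 425 units in CV TB and 7.73 ± 2.32 in LE (log2 7.52 ± 0.37, adjusted p = 0.000485). The following genes were chosen for their CV TB against LE difference after it was seen. The largest among the top genes were those of SLC35F1 (9.16 ± 0.43), MCTP1 (8.68 ± 0.31), THBS2 (8.40 ± 0.39) and MMP7 (8.35 ± 0.35), all under 25 units in every LE sample.

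Top genes that were lower in whole CV TB than in LE combined opposite directions in the 2 comparisons. ANXA9, an annexin, was 180.1, 170.02, 139.6 and 305 units in the top, 44.9, 23.3, 38.5 and 28.0 in the bottom, 237 ± 139 in whole CV TB and 6422 ± 384 in LE (top against bottom 2.54 ± 0.35, CV TB against LE -4.97 ± 0.43, adjusted p = 0.00158). TMEM45B was 325, 293, 188 and 249.97 in the top, 43.9, 47.9, 15.3 and 84.9 in the bottom, 46.2 ± 27.6 in CV TB and 1150.3 ± 389 in LE (top against bottom 2.67 ± 0.37, CV TB against LE -4.71 ± 0.42, adjusted p = 0.00175). LYZ (-3.88 ± 0.40 against LE), DOP1B (-5.02 ± 0.41), SLCO4A1 (-3.81 ± 0.60) and EPHX4 (-2.41 ± 0.30) had the same pattern. The fractions and these 8 samples were separate array sets, so that levels across them are set side by side only. In the fractions, markers of differentiated keratinocytes summed to 10004 to 25348 units in top samples and 17674 to 25781 in bottom samples, higher in the top in animal 9 alone. KRT16 made up 32.5% of the sum, and 9 of the 14 tested members were above 0 (median 0.12). The part of these cells in the genes above was not tested.

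Bottom genes also split by their relation to LE. TMSB15A averaged 273 ± 158 units in CV TB and 8.44 ± 5.08 in LE (log2 4.84 ± 0.78, adjusted p = 0.00818). FREM2, an extracellular matrix protein of epithelia, was 122, 93.5, 247 and 124 in the bottom and 24.9, 28.1, 55.5 and 20.1 in the top and was higher in CV TB than in LE by 4.31 ± 0.64 (adjusted p = 0.00646). Both bottom genes were thus higher in the bud than outside it. By contrast, MUC15 (-6.32 ± 0.28 against LE), the triglyceride enzyme DGAT2 (-6.08 ± 0.31), GABRE (-5.55 ± 0.32) and AMOTL1 (-4.18 ± 0.74) were lower in CV TB than in LE. DGAT2 measured 739.99, 1191, 525 and 1042 units in the bottom, 336, 231, 165 and 115 in the top, 32.6 ± 11.3 in CV TB and 2125 ± 83.5 in LE. KRT9, DKK3, TP63, NRN1, FGFR2, FGFR3 and GLI1 were called in neither direction between CV TB and LE. Of these, NRN1 was at 8.39 to 14.5 units in CV TB and 7.91 to 28.4 in LE. GLI1 was at 13.4 to 21.7 in CV TB and 11.8 to 25.3 in LE. Both were thus near or under 25 units on both sides, where a comparison says little.

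**Figure D5:**
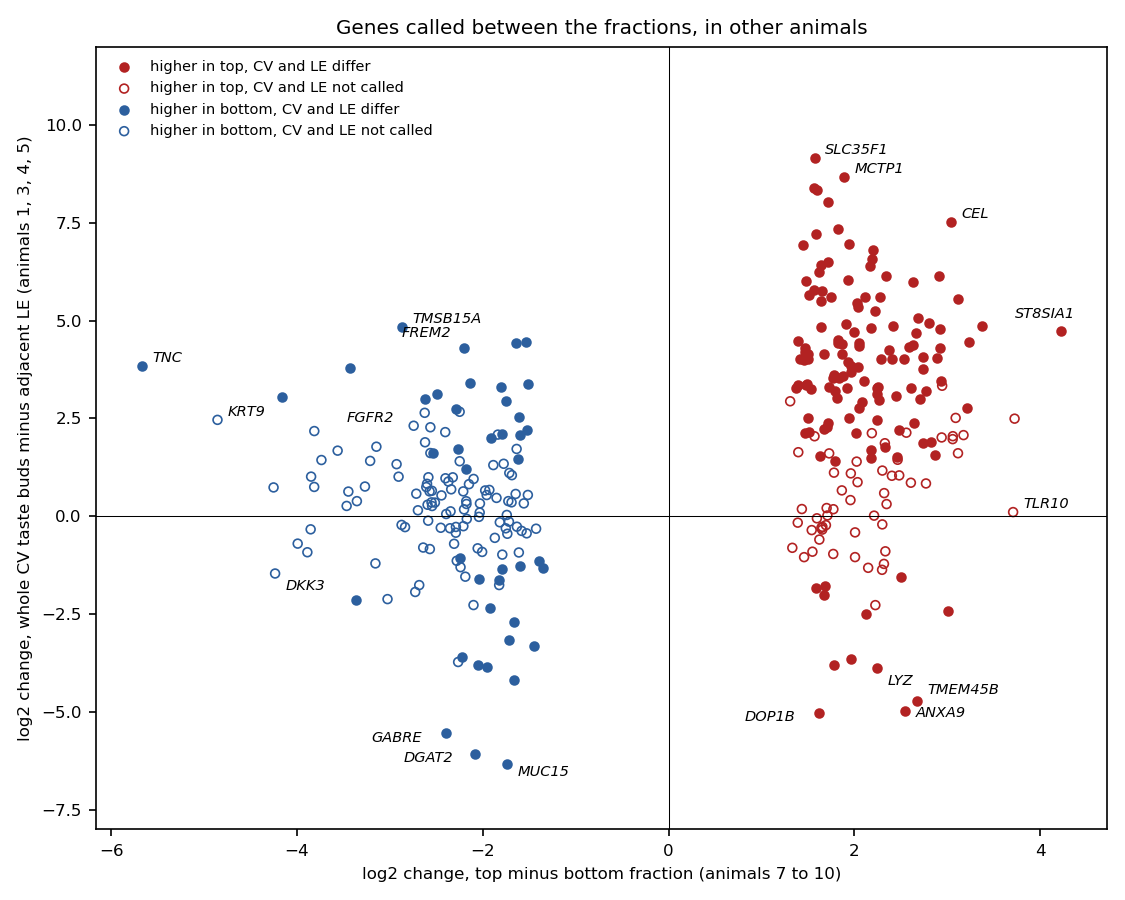
Log2 change between the top and the bottom fraction in animals 7 to 10 (horizontal axis) and between whole CV TB and adjacent LE in animals 1, 3, 4 and 5 (vertical axis) for the 332 genes called between the fractions. Filled points were called in the vertical comparison too. Of the genes of the top (red), 118 lie above and 12 below 0 as filled points, and of those of the bottom (blue) 23 and 19.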

How the data were processed

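The authors processed all 28 arrays by GC-RMA, with background correction and quantile normalization, and deposited an intensity for each of 52024 probe sets in every sample. The version of that software is not given in the sources used here, and the labels and the methods name different NuGEN amplification kits. All values were on a linear scale and were log2 transformed here. In the fraction samples, 39.4% to 40.8% of probe sets were at or above 25 units. Arrays have no read depth, and the number of animals limits their precision.

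The 21167 probe sets that reached 25 units in 4 or more fraction samples were fitted with limma 3.58.1 in R 4.3.3, with fraction and animal as terms, default empirical Bayes moderation and Benjamini-Hochberg adjustment. Moderation raised the 3 residual degrees of freedom to 6.38. The same probe sets were fitted in whole CV TB and adjacent LE of other animals. No group test over lists was run. Lists are given by counts and by the median of 1 probe set per gene, the one with the highest mean log2 value over the 8 samples. The fit was tested on simulated data.

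The pairing comes from the labels, where the fractions of an animal carry the same animal identifier. Deviations from the fraction means correlated at r = 0.06 to 0.28 in the same animal (mean 0.12) and at a mean of -0.04 in different animals.

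Probe sets were named by the annotation of the array and by a supplementary list of the study, used for names only. The 120 probe sets to which these give different genes were not named, nor were 25907 without a name and 356 with several. No sequence table was used. Named are the 12 largest called changes in each direction alike in 4 of 4 animals, without matrix, cell cycle and taste receptor genes and without locus placeholders as symbols, up to 4 called members per direction of each list described, up to 3 bright members of a list without calls, 2 of each list left aside, and cell type markers. Genes named otherwise are marked in the text, and 1 called gene that the rule names is not reported here. Members, lists and tests were chosen with earlier results of these data known. Alternatives were no block, raised values, other centring, filters and moderation, a fit of all 28 samples, the methods' t-test and leaving out animals. The centring on tested probe sets and the fits of all 28 samples without 1 animal were chosen after seeing the data.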

Additional observations from a re-analysis of the deposited data

Results flagged for a closer look

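In 16 of the 258 groups of 4 samples examined (both fractions of each gene named), 1 sample lay far from the other 3, with a gap to its neighbour, as a share of the range of the log2 values, above Dixon's critical value for 4 samples. Chance alone gives about 1 in 20. Animal 10 gave 7 of the 16.

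In the top fractions, animal 10 was low for FGF12 (461 units, against 1720 to 1882 in the other 3), for LCN1 (67.3, against 796 to 1105) and for DOP1B (107, against 151 to 161), and high for AGR3 (561, against 215 to 244) and SHH (2605, against 1300 to 1345). In the bottom fractions it was high for DPT (753, against 456 to 467) and ELOVL7 (523, against 287 to 300.2).

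The bottom fraction of animal 9, whose correlation with its fraction was the lowest, was low for MMP7 (855, against 1350 to 1448) and SMO (85.3, against 263 to 297), and high for AMOTL1 (548, against 352 to 379) and TAS2R49 (17.9, against 3.24 to 3.70, all under the 25 units of the filter). Animal 7 was low for BNC2 in the bottom (29.99, against 42.8 to 44.9) and NRXN3 in the top (831, against 942 to 964), and high for TLR10 in the bottom (21.4, against 3.51 to 4.63). Animal 8 was low for LAMA3 in the bottom (28.7, against 61.6 to 68.0) and PCSK2 in the top (34.7, against 135 to 155). For each called gene among these, the top and bottom samples of the outlying animal differed in the direction of the other 3, as they did for all 332 called genes.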

How the results depend on the processing

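The 111 called genes named in the report kept their direction in every fit of 3 animals. This was fixed in advance, since each of them differed the same way in 4 of 4 animals. No probe set was called in the 8-sample fits without 1 animal, with or without the 5-fold threshold (0 in each direction), where 2 residual degrees of freedom remain. The methods' paired t-test also gave 0 in each direction after Benjamini-Hochberg, with 3218 probe sets at an unadjusted p under 0.05. Without the filter on dim probe sets, which tests many more of them, 31 were higher in the top and 35 in the bottom (19 and 23 at 5-fold), and 94 of the 111 genes lost their call. Without the replicate block 581 were called toward the top in place of 355, and 15 of the 111 genes lost their call, among them CHD5, EPHX4, IQGAP3, POMC and ST3GAL5. An intensity trend in the moderation gave 687 toward the top. The cause of these changes was not tested. With values raised to 25 units before the fit, 49 in place of 108 probe sets were 5-fold higher in the top, and bottom genes higher in CV TB than in LE went from 23 to 13, since raising shrinks changes of dim probe sets.

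The fit of all 28 samples called 68 of the 111 genes. Without animal 7, 8, 9 or 10 it called 109, 118, 163 and 96 probe sets toward the top and 124, 104, 171 and 76 toward the bottom (59, 62, 72 and 47, and 60, 55, 83 and 42 at 5-fold). Leaving out 1 animal of the comparison with LE gave 97 to 116 top genes higher in CV TB and 8 to 11 lower, and 12 to 15 bottom genes higher and 12 to 17 lower. Centring on the median of tested probe sets ended 15 calls, among them MMP7, NRXN3, SSTR1 and ADRA1A. Centring over all probe sets ended none.

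Directions reversed for a second probe set of CHD5 (-0.027), CLIC5 (1.13), MITF (-0.67) and KRT16 (0.10), none of them called. Of the 43 other probe sets of called genes, 19 were called the same way and 21 went the same way without a call. The genes that were not called and crossed 0 were COL17A1 without animal 10 (0.000508 in both fits, range -0.41 to 0.000508 without 1 animal) and SHH without animal 9 (-0.038 in both fits), without animal 10 (-0.041 in both fits, range -0.041 to 0.098 without 1 animal) and with arrays centred on the tested probe sets (-0.12). Dim signal limits the size of some changes: all bottom samples were under 25 units for 25 of the 185 top genes, and all top samples for 22 of the 147 bottom genes.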
